A study of Mus musculus with 6 samples.

Results

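Integrins and laminins were read out in GFP-sorted mouse pancreas cells of the KCiMist1G model with the p120f/f genotype, called knockout by the labels, and with p120wt/wt. The members were all rows whose platform annotation named 1 integrin alpha or beta or 1 laminin alpha, beta or gamma symbol alone, with the row of highest mean kept for each gene. This gave 34 genes, 24 integrins (16 alpha and 8 beta subunits) and 10 laminins, from 43 rows, among 20259 genes and 115830 rows in all. Itga1 and Itgax had only rows shared with another gene and were not counted among them.

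Each genotype had 3 arrays, 1 per biological replicate. All 6 samples carried the KCiMist1G alleles, received tamoxifen at 7 to 9 weeks of age to activate Cre, and were digested and sorted for GFP 2 weeks later. The labels do not spell out KCiMist1G; Mist1 is a transcription factor gene of acinar cells whose locus has been used to drive inducible Cre. Whether a biological replicate came from 1 mouse or several is not stated, and the p-values cover only the spread between these samples. Ctnnd1 encodes p120 catenin, which holds classical cadherins at the cell surface by binding next to the membrane. The comparison asked how the transcriptome of the preinvasive model differs with and without it.

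Integrins are transmembrane receptors made of 1 alpha and 1 beta subunit that tie the cytoskeleton to extracellular matrix or to ligands on other cells. Laminins are trimers of an alpha, a beta and a gamma chain and form, with type IV collagen, nidogen and perlecan, the basement membrane on which acini and ducts rest. The subunits were set apart by their textbook distribution: 9 epithelial, 7 leukocyte, 12 stromal, and 6 that are broadly expressed or fit none of these.

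The values were RMA log2 expression, so a difference of 1 is a doubling before RMA's compression of dim signals. On the check of the labels, Ctnnd1 averaged 6.20 ± 0.52 in knockout against 6.37 ± 0.47 in wild type (SD, n = 3 each), with a difference of -0.17 (95% confidence interval -0.91 to 0.57), and its groups overlapped. That difference was smaller than the spread within either group, so this row, which may read parts outside the deletion, did not separate the arrays labelled knockout from those labelled wild type, and every direction is that of the labels. Cpa1, which encodes the acinar zymogen carboxypeptidase A, ranged from 12.70 to 12.93 in knockout and from 12.78 to 12.88 in wild type. The sorted cells also gave leukocyte signal: Ptprc, which encodes the leukocyte surface protein CD45, measured 9.92, 8.61 and 8.38 on knockout arrays 1 to 3 and 9.44, 9.17 and 9.60 on wild-type arrays 1 to 3. Knockout array 1 stood apart from the other knockout arrays on the first principal component (-38.1, against 28.4 and 37.1), with the wild-type arrays between -14.9 and -4.16.

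No integrin or laminin gene passed the test between the genotypes. In limma, with Benjamini-Hochberg adjustment over all 20259 genes, 0 of 34 had an adjusted p under 0.05, as had 0% of all genes, and the smallest adjusted p among members was 0.907. Before adjustment, 4 members had a p under 0.05, against 3.49% of all genes. Higher in knockout were Itgb6 and Itgad, against 2.31% of all genes, and lower were Itgb8 and Itgae, against 1.19%. The 95% confidence interval of the difference included 0 for the other 30. The differences ran from -0.58 for Lama4 to 0.47 for Itgad, 14 above 0 and 20 below it, where 61.7% of all genes were above 0. Their median was -0.08 and that of all genes was 0.055.

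**Figure D1:**
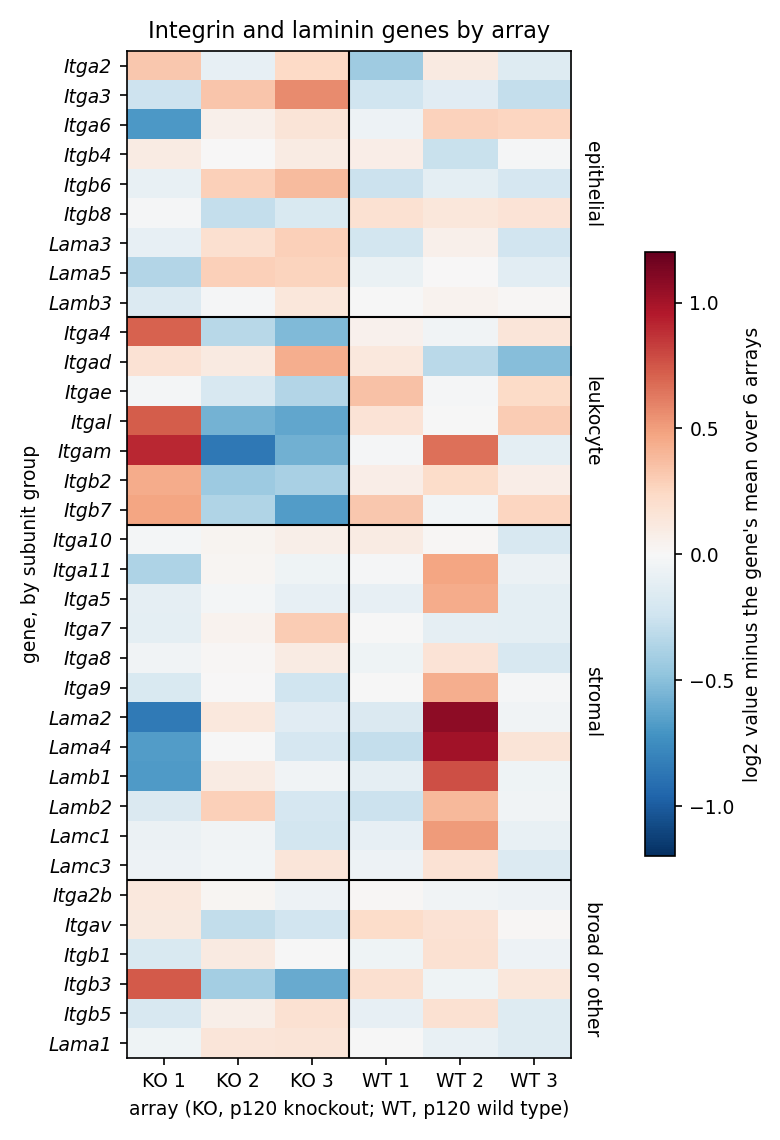
Log2 expression of the 34 integrin and laminin genes, each row minus that gene's mean over the 6 arrays, with the p120 knockout arrays (KO 1 to 3) left of the wild-type arrays (WT 1 to 3). Leukocyte subunits such as Itgal and Itgam are highest on KO 1, and stromal laminins such as Lama2 and Lama4 are highest on WT 2.

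Among the epithelial integrins, Itgb6 was higher and Itgb8 lower on all 3 knockout arrays, and neither passed the adjusted threshold. Both were dim, with a mean level below that of the median gene. Itgb6 encodes the beta subunit that pairs with the alpha-v subunit on epithelia and activates latent TGF-beta. It measured 4.66, 5.03 and 5.13 on knockout arrays 1 to 3 and 4.49, 4.63 and 4.55 on wild-type arrays 1 to 3. The groups did not overlap, although knockout array 1 lay only just above wild-type array 2. The difference was 0.38 (SE 0.15, limma adjusted p = 0.907), a 1.30-fold ratio, with the exact two-sided permutation test at 0.1, the smallest p that 3 arrays against 3 allow. Itgb8, whose product also pairs with the alpha-v subunit and activates latent TGF-beta, measured 4.57, 4.31 and 4.41 in knockout and 4.77, 4.72 and 4.75 in wild type. Its groups did not overlap either, with a difference of -0.32 (SE 0.12, adjusted p = 0.907; exact permutation p = 0.1). Groups were apart with knockout higher for 1 of 34 members, against 6.21% of all genes, and with knockout lower for 2 of 34, against 2.47% of all genes.

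The shared partner of both, Itgav, measured 7.30, 6.88 and 6.95 in knockout and 7.40, 7.35 and 7.19 in wild type. Its groups overlapped through knockout array 1, and the difference was -0.27 (SE 0.15, adjusted p = 0.907). A dimmer second row of Itgav differed by -0.84, and the mean of both rows by -0.55.

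Itga3 and Itga6 encode the alpha subunits of the epithelial laminin receptors, and Itgb4 the partner of Itga6 in hemidesmosomes. Itga3 measured 6.44, 7.02 and 7.25 in knockout and 6.45, 6.55 and 6.40 in wild type. Knockout arrays 2 and 3 lay above every wild-type array and knockout array 1 lay among them, and the difference was 0.43 (SE 0.21, adjusted p = 0.907). Itga6 measured 7.43, 8.18 and 8.28 in knockout and 8.05, 8.39 and 8.38 in wild type, so that knockout array 1 was the lowest of all. Its difference was -0.31 (SE 0.24), and it was -0.045 without knockout array 1. A dimmer second row of Itga6 differed by -0.96, and the mean of both rows by -0.63. Itgb4 stayed within a narrow range, 8.33 to 8.43 in knockout and 8.06 to 8.41 in wild type, with a difference of 0.13 (SE 0.13). A second row of Itgb4 gave a difference of 0.17, with 7.82 on knockout array 1 against 8.41 and 8.56 on knockout arrays 2 and 3.

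Itga2, the alpha subunit of an epithelial collagen and laminin receptor, measured 5.15, 4.73 and 5.06 in knockout and 4.40, 4.93 and 4.67 in wild type. The groups overlapped, with a difference of 0.31 (SE 0.18). Of the epithelial laminins, Lama3 and Lamb3 encode chains of the laminin that hemidesmosomes bind. Lama3 measured 4.37, 4.66 and 4.75 in knockout and 4.25, 4.53 and 4.24 in wild type, with a difference of 0.26 (SE 0.15). Lamb3 ranged from 6.82 to 7.13 in knockout and from 6.98 to 7.03 in wild type, with a difference of -0.03 (SE 0.12). Lama5, the alpha chain of most adult epithelial basement membranes, measured 6.36, 7.01 and 6.99 in knockout and 6.64, 6.72 and 6.60 in wild type. It was the 1 member with knockout array 1 below, and knockout arrays 2 and 3 above, all wild-type arrays, an arrangement seen in 15.4% of all genes.

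Over the 9 epithelial genes, 6 differences were above 0 and 3 below, with a median of 0.13 (0.23 without knockout array 1 and 0.049 with arrays shifted to 1 median), and 0 were called. For 6 of them (Itga3, Itga6, Itgb6, Lama3, Lama5 and Lamb3) knockout array 1 was the lowest knockout array. Markers of epithelial cells were also lowest on that array: the mean of 13 acinar markers was 10.46 on knockout array 1, between 11.12 and 11.15 on the other knockout arrays and between 10.90 and 10.97 on wild-type arrays. The mean of 7 duct markers was 7.24, 7.86 and 7.88 on the knockout arrays and ranged from 7.43 to 7.94 on wild-type arrays. The part of these markers in the epithelial values was not tested. Without knockout array 1, the differences were 0.67 for Itga3 (adjusted p = 0.0567), 0.52 for Itgb6 (0.0601), -0.39 for Itgb8 (0.0747) and 0.34 for Lama5 (0.09), still with 0 members called. In that fit 29.3% of all genes had an unadjusted p under 0.05.

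**Figure D2:**
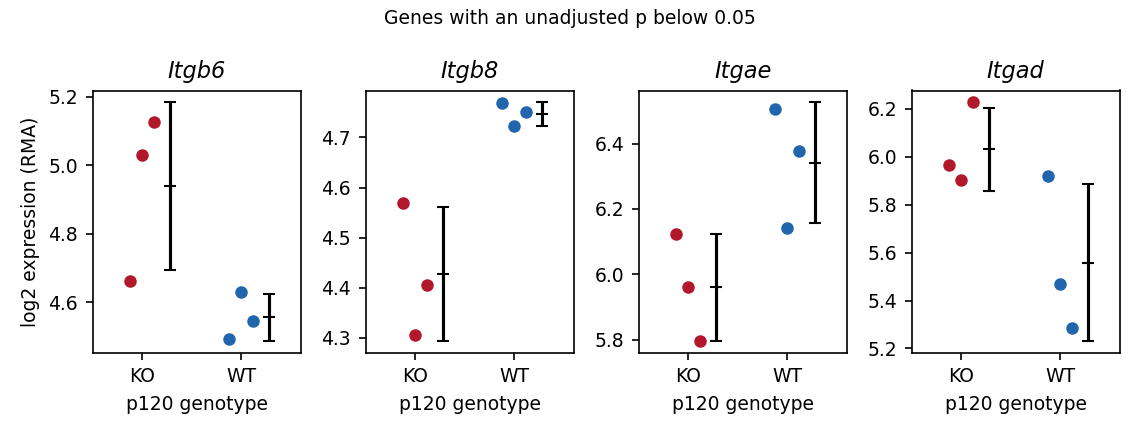
RMA log2 expression of the 4 members with an unadjusted p under 0.05, 1 point per array, knockout (KO, red) left of wild type (WT, blue), with mean and SD (n = 3) as black bars; the vertical axes differ and do not start at 0. For Itgb6, Itgb8 and Itgae no knockout point overlaps the wild-type points, and for Itgad wild-type array 1 (5.92) lies above knockout array 2 (5.90).

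No leukocyte integrin was called between the genotypes, and most varied more between the knockout arrays than between the groups. Of the 7 leukocyte subunits, 5 (Itga4, Itgal, Itgam, Itgb2 and Itgb7) had knockout array 1 above, and knockout arrays 2 and 3 below, all wild-type arrays, an arrangement found in 9.46% of all genes; Itgae and Itgad did not. Over the 7, 1 difference was above 0 and 6 below, with a median of -0.31 and 0 called. Leaving out knockout array 1 gave a median of -0.54, leaving out array 2 of that group gave -0.097, and leaving out its array 3 gave -0.12. In bulk samples of this kind, fewer cells of a type and less RNA per cell cannot be told apart.

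Itgb2 encodes the beta subunit common to the leukocyte-specific integrins. It measured 9.25, 8.37 and 8.42 in knockout and 8.89, 9.02 and 8.88 in wild type. Itgal, its partner in the receptor by which lymphocytes bind intercellular adhesion molecules, measured 8.86, 7.57 and 7.52 in knockout and 8.31, 8.14 and 8.44 in wild type. Itgam, its partner on macrophages and neutrophils, measured 7.98, 6.22 and 6.50 in knockout and 7.06, 7.74 and 6.96 in wild type. All 3 genes of these pairs thus spanned a wider range over the knockout arrays than over the wild-type arrays, and Itgam was the only one of them with a second high value, on wild-type array 2. The knockout minus wild-type differences were -0.25 for Itgb2 (SE 0.24), -0.31 for Itgal (SE 0.35) and -0.35 for Itgam (SE 0.45), each smaller than the spread between knockout arrays. Between knockout array 1 and the mean of the other knockout arrays, the gap was 0.86 for Itgb2, 1.32 for Itgal and 1.62 for Itgam.

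Itgb7 encodes the beta subunit that pairs with Itga4 on gut-homing lymphocytes and with Itgae on T cells that reside in epithelia. Itgb7 measured 8.45, 7.62 and 7.31 in knockout and 8.30, 7.95 and 8.24 in wild type. Itga4 measured 5.56, 4.52 and 4.32 in knockout and 4.90, 4.81 and 4.99 in wild type. Both followed the arrangement of Itgal, and their differences were -0.37 (SE 0.28) and -0.10 (SE 0.30). Rows that name Itga4 together with Cerkl were left out, and their differences were -0.58, -0.21, -0.15 and 0.07. The row with the largest difference measured 8.85, 7.31 and 6.99 in knockout and 8.40, 8.14 and 8.34 in wild type. The brightest measured 9.50, 8.34 and 8.44 in knockout and 9.07, 8.82 and 9.01 in wild type. The Itga4 row used here was dimmer than both.

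Itgae, whose protein binds E-cadherin, differed from the other leukocyte subunits in that all knockout arrays lay below all wild-type arrays. It measured 6.12, 5.96 and 5.80 in knockout and 6.50, 6.14 and 6.38 in wild type, the groups being only just apart between knockout array 1 and wild-type array 2. The difference was -0.38 (SE 0.15, 95% confidence interval -0.73 to -0.037, adjusted p = 0.907; exact permutation p = 0.1). It ranged from -0.48 to -0.30 when any 1 array was left out, with a smallest adjusted p of 0.0989. Cdh1, which encodes E-cadherin, measured 7.63, 8.56 and 8.65 in knockout and 7.96, 8.56 and 8.23 in wild type, with a difference of 0.03. Beside Itgae, the mean of 13 T and NK cell markers was 7.41, 6.86 and 6.71 on the knockout arrays and 7.49, 7.02 and 7.49 on the wild-type arrays, and 11 of the 13 had a difference below 0. The part of T cell content in the Itgae values was not tested.

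Itgad was the 1 leukocyte member with a difference above 0. It encodes a macrophage alpha subunit that pairs with Itgb2, and it neighbours Itgam and Itgax in the genome, with similar sequences that array rows cannot be shown to separate. It measured 5.96, 5.90 and 6.23 in knockout and 5.92, 5.47 and 5.29 in wild type, a difference of 0.47 (SE 0.19, adjusted p = 0.907). Its 3 other rows differed by -0.17, 0.02 and 0.40, so its rows disagreed, and their mean differed by 0.18. The row shared by Itgax, a dendritic cell and macrophage subunit, and Slc25a51 measured 7.29, 5.76 and 5.81 in knockout and 6.44, 6.87 and 6.21 in wild type, an order like that of Itgam.

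Pan-leukocyte markers were arranged over the arrays as these integrins were. The mean of 10 such markers was highest on knockout array 1 (9.11), lowest on knockout array 3 (7.91), and ranged from 8.56 to 8.75 on wild-type arrays, and all 10 had the same arrangement as Itgal. The mean of the 7 leukocyte subunits was 7.46, 6.60 and 6.58 on the knockout arrays and ranged from 7.03 to 7.13 on wild-type arrays. B cell markers (8 of 8) and neutrophil markers (8 of 10) shared the arrangement. Of 13 T and NK cell markers 1 did, against 9.46% of all genes. Of 14 macrophage and dendritic cell markers 1 did and 12 were highest on wild-type array 2, where Itgam was also high. Csf1r, the macrophage growth factor receptor, ranged from 6.51 to 7.65 in knockout and from 6.82 to 7.79 in wild type. The neutrophil gene S100a8 ranged from 6.82 to 8.98 in knockout and from 7.77 to 8.56 in wild type. The part of leukocyte content in the integrin values was not tested. Without knockout array 1, the differences were -0.75 for Itgal (adjusted p = 0.0542), -0.54 for Itgb2 (0.0585), -0.70 for Itgb7 (0.0669), -0.48 for Itga4 (0.0729) and -0.89 for Itgam (0.0887). That fit had 14 of 34 members at an unadjusted p under 0.05, against 29.3% of all genes in the same fit.

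**Figure D3:**
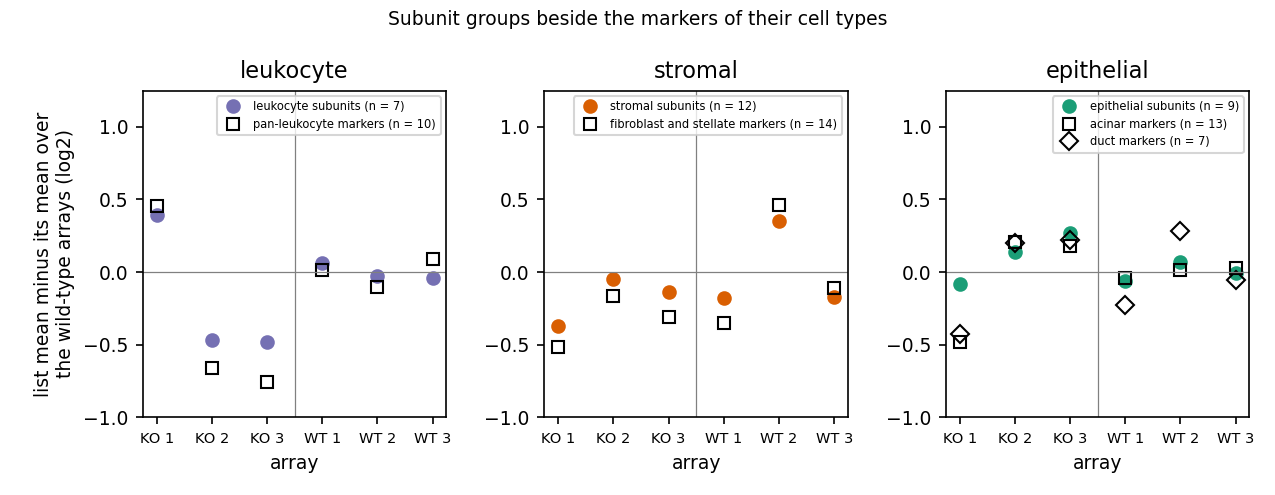
Mean log2 value per array of the leukocyte, stromal and epithelial subunits (filled circles) and of marker genes of those cell types (open symbols), each minus its own mean over the wild-type arrays, with knockout arrays (KO) left of wild-type arrays (WT). Leukocyte subunits and pan-leukocyte markers are both highest on KO 1 and lowest on KO 2 and KO 3, and stromal subunits and fibroblast markers are both highest on WT 2.

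Of the 34 members 21 matched a promoter entry of RefSeq (GRCm38.p6), Itgam, Itgb7 and Itga4 among the leukocyte subunits. Their upstream sequences are shown because these 3 genes had the same arrangement over the arrays. The 250 bases before the annotated start are given 5′ to 3′, for Itgam at chr7:128062390-128062639, plus strand, for Itgb7 at chr15:102231936-102232185, minus strand and for Itga4 at chr2:79255176-79255425, plus strand. Capitals mark the letters GAGGAA, the core bound by the myeloid and B cell ETS factor encoded by Spi1, or GGGCGG, the GC box bound by Sp1, on either strand.
Itgam: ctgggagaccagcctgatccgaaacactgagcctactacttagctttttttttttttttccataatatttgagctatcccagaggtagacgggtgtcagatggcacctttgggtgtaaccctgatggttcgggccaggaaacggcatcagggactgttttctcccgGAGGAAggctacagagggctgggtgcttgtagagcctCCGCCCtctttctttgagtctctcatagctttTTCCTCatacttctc
Itgb7: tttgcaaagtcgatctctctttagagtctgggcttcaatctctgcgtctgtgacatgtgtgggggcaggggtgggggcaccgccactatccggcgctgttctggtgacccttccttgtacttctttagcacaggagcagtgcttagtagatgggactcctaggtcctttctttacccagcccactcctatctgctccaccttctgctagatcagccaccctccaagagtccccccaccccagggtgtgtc
Itga4: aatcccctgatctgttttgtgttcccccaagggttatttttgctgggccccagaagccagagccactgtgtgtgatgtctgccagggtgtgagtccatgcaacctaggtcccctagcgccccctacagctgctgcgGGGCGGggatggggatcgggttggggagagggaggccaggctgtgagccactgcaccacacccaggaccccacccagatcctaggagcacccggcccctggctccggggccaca
GAGGAA occurred at 2 places in the Itgam window and at 0 in those of Itgb7 and Itga4, where 23.3% of all 32851 windows of the same length held it. Among windows of the other members, 5 of 8 stromal, 4 of 9 epithelial and 3 of 4 broad or other ones held it. GGGCGG occurred once each for Itgam and Itga4 and not for Itgb7, against 32.7% of all windows. These matches describe the letters only. Neither motif occurred in all 3 windows.

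Stromal laminins and integrins were highest on wild-type array 2, and none was called between the genotypes. Of the 12 stromal genes, 10 had their highest value on wild-type array 2, which was the highest array for 9.95% of all genes. The exceptions were Itga7 and Itga10. The row shared by Itga1, a stromal subunit, and Pelo was left out and was highest on knockout array 3. That row measured 5.46, 6.56 and 6.64 in knockout and 5.41, 6.31 and 6.05 in wild type. Lama2, the alpha chain of muscle and mesenchymal basement membranes, measured 4.35, 5.32 and 5.06 in knockout and 5.03, 6.27 and 5.15 in wild type. Lama4, the alpha chain of vessel and mesenchymal basement membranes, measured 4.58, 5.24 and 5.04 in knockout and 4.96, 6.25 and 5.40 in wild type. Both had their lowest value on knockout array 1 and their highest on wild-type array 2. Lama2 and Lama4 were dim, with a mean level below that of the median gene, which 5 of the 12 stromal genes exceeded. The differences were -0.57 for Lama2 (SE 0.38) and -0.58 for Lama4 (SE 0.33, adjusted p = 0.907 for both). Without wild-type array 2 they were -0.18 and -0.22, and without knockout array 1 and wild-type array 2 together Lama2 was 0.10 and Lama4 -0.036.

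Lamb1 and Lamc1 encode the beta and gamma chains found in many laminin trimers. Lamb1 measured 4.99, 5.76 and 5.62 in knockout and 5.55, 6.44 and 5.61 in wild type, with a difference of -0.41 (SE 0.29). Lamc1 measured 6.95, 6.97 and 6.80 in knockout and 6.91, 7.52 and 6.93 in wild type, with a difference of -0.22 (SE 0.19) that was -0.015 without wild-type array 2. In each, wild-type array 2 alone lay clearly above the rest. Lamb2, a beta chain prominent at vessel and muscle basement membranes, ranged from 6.45 to 6.93 in knockout and from 6.39 to 7.03 in wild type, with a difference of -0.06 (SE 0.21). Lamc3, a less widespread gamma chain, had 4 rows, whose differences lay between 0.022 and 0.081.

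Itga5, Itga9 and Itga11 were also highest on wild-type array 2. Itga5, the fibronectin receptor subunit, ranged from 7.01 to 7.09 in knockout, and measured 7.02, 7.56 and 7.00 on wild-type arrays 1 to 3. Itga9, a receptor subunit for tenascin C, measured 4.86, 5.05 and 4.81 in knockout and 5.05, 5.49 and 5.03 in wild type. Itga11, the fibroblast receptor subunit for fibrillar collagen, measured 4.93, 5.32 and 5.24 in knockout and 5.28, 5.77 and 5.22 in wild type. The differences were -0.15 for Itga5 (SE 0.17), -0.28 for Itga9 (SE 0.16) and -0.26 for Itga11 (SE 0.19). For Itga5 the value without wild-type array 2 was 0.03. Itga7, a laminin receptor subunit of muscle, differed by 0.15 (SE 0.14), Itga8, a nephronectin receptor subunit, by 0.05 (SE 0.13), and Itga10, a collagen receptor subunit of cartilage, by 0.05 (SE 0.12).

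Fibroblast markers were high on the same array. The mean of 14 fibroblast and stellate cell markers ranged from 5.81 to 6.17 in knockout and was 5.98, 6.79 and 6.22 on wild-type arrays 1 to 3, and 11 of the 14 were highest on wild-type array 2. Col1a1, a chain of type I collagen, measured 7.19, 7.62 and 7.52 in knockout and 7.35, 8.58 and 7.76 in wild type. Endothelial markers were less alike: 5 of 12 were highest on wild-type array 2, and their mean was 4.91, 5.45 and 5.49 in knockout and 4.97, 5.51 and 5.18 in wild type. The mean of the 12 stromal subunits was 5.25, 5.57 and 5.48 in knockout and 5.44, 5.97 and 5.45 in wild type. Over these 12, 8 differences were below 0 and 4 above, with a median of -0.18, and the median was 0.0073 without wild-type array 2. The part of fibroblast content in the laminin values was not tested.

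The upstream windows of Lama2 (chr10:27616943-27617192, minus strand) and Lamb1 (chr12:31265043-31265292, plus strand) are shown as the laminin genes with a RefSeq entry (GRCm38.p6) that stood furthest above the other wild-type arrays on wild-type array 2, with the same letters in capitals.
Lama2: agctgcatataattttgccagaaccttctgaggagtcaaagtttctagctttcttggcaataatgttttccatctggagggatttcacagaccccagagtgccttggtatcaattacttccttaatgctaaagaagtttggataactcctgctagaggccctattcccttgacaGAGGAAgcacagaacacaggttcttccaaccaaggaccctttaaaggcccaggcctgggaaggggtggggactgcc
Lamb1: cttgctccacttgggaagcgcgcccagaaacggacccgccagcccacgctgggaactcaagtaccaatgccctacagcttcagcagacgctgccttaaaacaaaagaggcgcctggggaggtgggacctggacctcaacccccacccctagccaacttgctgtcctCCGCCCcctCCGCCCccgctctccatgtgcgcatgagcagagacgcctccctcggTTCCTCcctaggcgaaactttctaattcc
GAGGAA occurred once in each, and GGGCGG at 2 places for Lamb1 and 0 for Lama2. Guanine and cytosine made up 47.2% of the Lama2 window and 62% of the Lamb1 window, with a median of 52.4% over all windows. The windows of these genes, which were high on the same array, thus differed in composition.

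**Figure D4:**
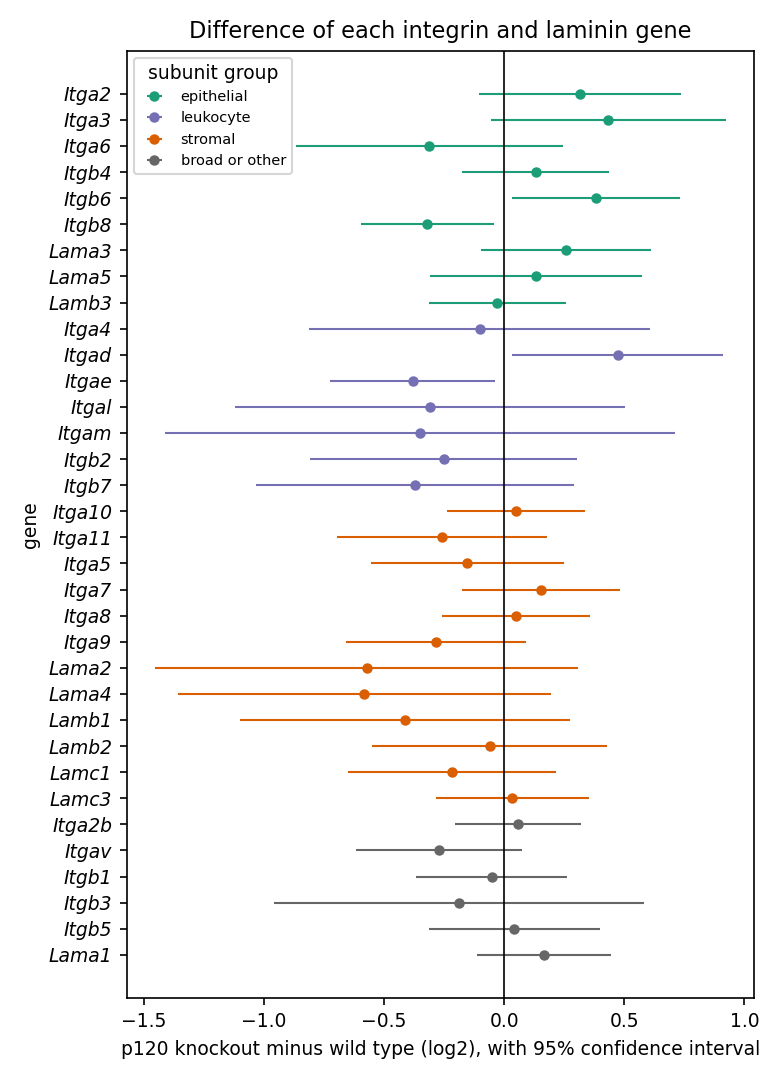
Knockout minus wild-type difference in log2 expression of each of the 34 genes, with the 95% confidence interval from limma, coloured by subunit group. The intervals include 0 for 30 genes; those of Itgb6 and Itgad lie above 0 and those of Itgb8 and Itgae below, before adjustment for 20259 genes.

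Among the broadly expressed and other subunits, Itgb3 behaved over the arrays like the leukocyte integrins. Itgb3 encodes the beta subunit of the platelet fibrinogen receptor and also pairs with Itgav. It measured 7.43, 6.29 and 6.10 in knockout and 6.89, 6.65 and 6.84 in wild type, knockout array 1 again being highest and knockout arrays 2 and 3 lowest. The difference was -0.19 (SE 0.33, adjusted p = 0.918), and -0.60 without knockout array 1 (adjusted p = 0.0603). Itga2b, its partner on platelets, stayed between 5.25 and 5.43 in knockout and between 5.25 and 5.32 in wild type, a difference of 0.06 (SE 0.11). The platelet chemokine gene Pf4 measured 5.53, 5.10 and 4.95 in knockout and 4.73, 6.68 and 5.17 in wild type, an order unlike that of Itgb3. Ppbp, another platelet marker, measured 5.31, 4.87 and 4.24 in knockout and 4.35, 4.71 and 4.06 in wild type. On knockout array 2 Ppbp lay above all wild-type arrays, where Itgb3 lay below them. Pf4 and Ppbp fell from knockout array 1 to 3 as Itgb3 did, Gp9 and Treml1 rose, and Gp6 was highest on knockout array 2. Of 5 measured platelet markers, 3 differences were above 0 and 2 below, and 0 had the arrangement of Itgal. The part of platelet content in the Itgb3 values was not tested.

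Itgb1, the partner of most matrix-binding alpha subunits, measured 7.32, 7.61 and 7.51 in knockout and 7.46, 7.69 and 7.45 in wild type. Its groups overlapped, with a difference of -0.05 (SE 0.13, 95% confidence interval -0.37 to 0.26). Itgb5, which pairs with Itgav to bind vitronectin, differed by 0.04 (SE 0.15). Lama1, the alpha chain of the early embryonic basement membrane, differed by 0.16 (SE 0.12), with 4.56, 4.76 and 4.78 in knockout and 4.62, 4.53 and 4.46 in wild type. Over these 6 genes 3 differences lay on either side of 0, and 0 were called.

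Matrix partners, ligands and cytoplasmic partners of integrins were read from 4 lists, and 0 of 68 measured genes were called in either direction. Before adjustment, 3 had a p under 0.05, against 3.49% of all genes. Groups were apart with knockout higher for 5 of the 68 (Col17a1, Fgb, Tln2, Tnc and Tns4), against 6.21% of all genes. With knockout lower they were apart for 0, against 2.47% of all genes. Among 16 basement membrane partners, 8 differences were above 0 and 8 below, with a median of 0.0042. Nid1, which encodes the nidogen that links laminin to type IV collagen, measured 6.87, 7.53 and 7.17 in knockout and 7.39, 8.77 and 7.92 in wild type, a difference of -0.84 (SE 0.34, adjusted p = 0.907). Like Lama2 it was highest on wild-type array 2. Col4a4, a type IV collagen chain, differed by 0.19 (SE 0.15), and Sparc, which encodes a collagen-binding matrix protein, by -0.30 (SE 0.26).

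Of 20 measured integrin ligands, 10 differences lay on either side of 0. Tnc, the tenascin C gene, measured 3.90, 4.23 and 4.42 in knockout and 3.82, 3.86 and 3.58 in wild type, a difference of 0.43 (SE 0.16). Postn, the periostin gene and also a fibroblast marker, measured 5.17, 5.53 and 5.54 in knockout and 5.47, 7.14 and 6.58 in wild type, a difference of -0.98 (SE 0.39). Fgb, the fibrinogen beta chain gene, differed by 0.27 (SE 0.13). None of the 3 passed the adjusted threshold (adjusted p = 0.907 for each).

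Of 28 measured activators and adaptors, 11 differences were above 0 and 17 below. The arrangement of Itgal was found in 10 of them, against 9.46% of all genes, and the opposite one in 5, against 15.4%. The kindlin genes were picked out after their values were seen, and 1 listed gene, Cytip, is also a pan-leukocyte marker. Fermt3, the kindlin of blood cells, measured 7.09, 6.17 and 6.26 in knockout and 6.52, 6.60 and 6.78 in wild type. Fermt1, the kindlin of epithelia, measured 6.54, 7.38 and 7.49 in knockout and 6.81, 7.10 and 7.11 in wild type. Fermt2, the widely expressed kindlin, measured 6.33, 7.82 and 7.67 in knockout and 6.97, 7.95 and 7.31 in wild type. Knockout array 1 was the highest knockout array for Fermt3 and the lowest for Fermt1 and Fermt2. The smallest p-values were those of Tln2, a talin gene, at 0.39 (SE 0.20), Tns4, a tensin gene of epithelia, at 0.20 (SE 0.11) and Krit1, a regulator of an integrin inhibitor, at -0.27 (SE 0.20). Of 4 hemidesmosome partners, Dst, a plakin gene, differed by -0.30 (SE 0.17), Col17a1, which encodes a transmembrane collagen, by 0.16 (SE 0.12) and Plec, the plectin gene, by -0.12 (SE 0.13), all with an adjusted p of 0.907.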

How the data were processed

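RNA of 6 sorted samples was measured on 6 arrays, 3 per genotype. The authors deposited log2 values, 1 row per probe group. They were made with RMA and Partek (no versions), per the submitters' processing notes, and the build is not given in the sources used here. RMA normalizes between arrays and compresses dim signals. Without detection calls, slides or scan dates, neither background nor batch could be tested, and the number of arrays limits precision. The median of an array lay between 4.09 and 4.25. Of 115830 rows, 25539 named 1 symbol, 2300 several and 87991 none here. Gene numbers of all 34 members matched RefSeq.

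Genotypes were compared in limma 3.58.1 (R 4.3.3; lmFit, then eBayes) with Benjamini-Hochberg adjustment over 20259 genes and a threshold of 0.05, and the fit was checked on simulated data. Exact two-sided permutation over arrays gave single-gene values. Members, subunit groups and lists were chosen with earlier results of these data known. All members are named, and from each partner list the 3 smallest p-values. The labels do not say whether replicate numbers pair the samples, and the main fit did not pair them. The correlations of same-numbered deviations were 0.041, 0.138 and -0.154. They cannot decide it, since deviations from a mean of 3 arrays sum to 0 within each group. Alternatives were scaling, a filter on dim genes, row choice, variance model, a replicate block and arrays left out.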

Additional observations from a re-analysis of the deposited data

How the results depend on the processing

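No member and no partner gene was called with limma under any of the 13 alternatives: a further quantile normalization, arrays shifted to 1 median, genes above the median level, the mean of rows, trend and robust variances, the replicate block, each array left out, and knockout array 1 and wild-type array 2 left out together. The last was chosen after seeing the data. Members at an unadjusted p under 0.05 numbered 4 (against 3.49% of all genes in the same fit), and 2 with arrays shifted to 1 median (against 3.6%). Above the median level they were 2 of 20 tested (against 2.39%), and Itgb6 and Itgb8, which lay below that level, were not tested. Such members numbered 4 with the replicate block (against 3.22%), 13 without both arrays (against 26.8%), and 0 to 14 without 1 array (against 1.92% to 29.3%). The highest count came without knockout array 1, when 2 of all genes were called, against 0 without any other array. The replicate block, which rests on the shared replicate number alone, changed no call. Under it Itgb8 and Itgad were no longer among the 4, and Lama2 and Lama4 took their place.

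Without both arrays the median difference of all genes was 0.116. It was 0.36 for epithelial, -0.56 for leukocyte, 0.098 for stromal and 0.055 for the broad or other subunits. The last group's median was -0.089 with arrays shifted to 1 median, -0.12 above the median level, and -0.058 to 0.040 without 1 array. Scaling also moved the number of members above 0, which was 14 as deposited, 13 after quantile normalization and 9 with arrays shifted to 1 median. Signs of small differences turned: after quantile normalization Itga10 was -0.028, Itga8 -0.036 and Lamb3 0.023, and with arrays shifted to 1 median Itga10 was -0.035, Itga2b -0.025, Itga8 -0.034, Itgb5 -0.041 and Lamc3 -0.050. Without both arrays Itga11 was 0.033, Itga5 0.045, Itga6 0.014, Itgb1 0.11, Lama2 0.10, Lamb1 0.11, Lamb2 0.19 and Lamb3 0.060. With 1 array left out, 24 members kept their sign and 10 did not: Itga10 (-0.033 to 0.11), Itga4 (-0.48 to 0.14), Itga5 (-0.25 to 0.030), Itga8 (-0.032 to 0.14), Itgb1 (-0.12 to 0.027), Itgb3 (-0.60 to 0.067), Itgb5 (-0.039 to 0.15), Lamb2 (-0.22 to 0.12), Lamb3 (-0.10 to 0.048) and Lamc3 (-0.041 to 0.13). The causes were not tested.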
